A study of Sus scrofa with 48 samples.

Results

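Ubiquitin ligase genes of the RNF, TRIM, F-box and cullin families were followed in pig perirenal adipose tissue (PRAT), the visceral fat around the kidney. Members were the genes whose name on the array began with RNF, TRIM, FBXO, FBXL, FBXW or CUL followed by a digit, read without regard to capital letters. The array held 134 such genes on 241 probes, of 60305 distinct probes in all. A gene was kept when a probe was flagged by the scanner software as well above background on 24 or more of the 48 arrays. This left 112 genes with 209 probes, among 43355 detected probes overall: 48 of 56 RNF genes, 27 of 37 TRIM genes, 30 of 34 F-box genes and all 7 cullins. Each gene was represented by its brightest detected probe, and a level is the log2 signal of a spot minus the median of its array.

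The 48 pigs formed 4 groups of 12. High-RFI pigs (RFIpl) and low-RFI pigs (RFIneg) came from lines selected in opposite directions on residual feed intake, the gap between the feed eaten and the feed predicted for growth, so that a low value is the efficient one. Pigs of either line ate freely a diet rich in fat and fiber (HF) or a starch-based diet poor in both (LF). The study formulated the diets to hold the same energy and protein per kg. It also reports that HF pigs ate less, ended lighter and had relatively less perirenal fat, so intake was not equal. All 48 pigs were purebred Large White barrows, labelled as 132 days old, so neither sex nor breed varied, and each line is 1 selected population. Fat, fiber, starch and the amount eaten differed together between the diets and cannot be told apart here.

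Ubiquitin is a small protein that marks others for the proteasome, for sorting or for signalling, and ubiquitin ligases choose the targets. Most RNF and TRIM ligases carry their own RING domain, and many act alone or in pairs. Cullins are scaffolds instead: they hold a RING subunit at one end and, at the other, an adaptor with an exchangeable receptor, and they are switched on when the small protein NEDD8 is attached to them. F-box proteins are the receptors of CUL1, to which SKP1 links them. In fat tissue, proteasomal degradation takes part in adipocyte differentiation, insulin signalling and lipid droplet turnover, and in muscle TRIM63 (MuRF1) and FBXO32 (atrogin-1) are the classical ligases of protein loss.

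Arrays had a median spot intensity between 115 and 178 against a median background of 23 to 33, no saturated spots, and 38875 to 47814 probes well above background. The array with the fewest was replicate 2 of the high-RFI pigs fed the HF diet. Each of the 6 slides held 2 arrays of every group, and the slides were scanned on 2 days. Their number limits the precision. All 8 adipocyte markers were detected, at mean levels from 4.46 to 10.8, and 2 of them, LEP and CIDEC, were called lower in HF pigs. Of 7 detected macrophage markers 5 were called higher in HF pigs, and their summed level ranged from 5.54 to 8.33 (median 7.15) in HF pigs and from 5.38 to 8.06 (median 6.44) in LF pigs. Of 8 lymphocyte markers 2 were called higher. None of 5 detected endothelium or 6 fibroblast markers was called, with median differences of 0.02 and 0.21. Of 5 listed kidney markers only AQP2 was detected, and it was called lower in HF pigs by -0.63. Among 8858 named genes with 1 probe each, 18.3% were called lower and 6.05% higher. The part of these cells in the differences below was not tested, and in bulk tissue fewer cells of a type and less RNA per cell cannot be told apart.

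The probes that the main results rest on are shown first, because the number of probes and the overlap between them decide how often a gene was measured. Each is 60 bases long, written 5′ to 3′ as on the array, and probes of a gene are numbered from the brightest. Capitals mark the longest run that a probe shares with another probe of the same gene, on either strand, where it reached 20 bases. Their genomic positions were not analysed here.
TRIM63 probe 1: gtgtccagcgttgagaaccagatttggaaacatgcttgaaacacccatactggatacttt
TRIM63 probe 2: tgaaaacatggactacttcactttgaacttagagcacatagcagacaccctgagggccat
FBXO32 probe 1: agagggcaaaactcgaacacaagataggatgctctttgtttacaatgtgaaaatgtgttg
FBXO32 probe 2: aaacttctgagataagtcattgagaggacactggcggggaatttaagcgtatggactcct
FBXO32 probe 3: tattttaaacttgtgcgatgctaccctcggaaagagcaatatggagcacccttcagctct
FBXO32 probe 4: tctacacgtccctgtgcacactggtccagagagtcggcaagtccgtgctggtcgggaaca
FBXO32 probe 5: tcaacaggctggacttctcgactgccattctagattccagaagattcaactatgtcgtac
TRIM25 probe 1: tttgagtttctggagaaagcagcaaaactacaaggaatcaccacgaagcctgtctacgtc
FBXO44 probe 1: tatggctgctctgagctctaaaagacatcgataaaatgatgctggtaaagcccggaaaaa
RNF130 probe 1: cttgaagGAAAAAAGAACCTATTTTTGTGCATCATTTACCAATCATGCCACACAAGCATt
RNF130 probe 2: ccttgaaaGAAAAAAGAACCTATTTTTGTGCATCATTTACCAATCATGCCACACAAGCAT
CUL4A probe 1: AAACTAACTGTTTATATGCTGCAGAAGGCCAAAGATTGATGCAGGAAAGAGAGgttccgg
CUL4A probe 2: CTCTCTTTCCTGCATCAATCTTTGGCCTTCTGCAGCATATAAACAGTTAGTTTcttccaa
FBXO21 probe 1: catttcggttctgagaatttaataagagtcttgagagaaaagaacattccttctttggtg
FBXO21 probe 2: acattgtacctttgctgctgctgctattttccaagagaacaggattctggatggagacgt
CUL7 probe 1: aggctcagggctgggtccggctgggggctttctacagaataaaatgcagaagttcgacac
CUL7 probe 3: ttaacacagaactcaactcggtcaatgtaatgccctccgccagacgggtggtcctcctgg

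The 5 FBXO32 probes share no run of 20 bases and so read 5 separate stretches, as do both TRIM63 probes. The 2 RNF130 probes share 52 bases and are nearly the same measurement. The 2 CUL4A probes share 53 bases on opposite strands. Over that stretch 1 of them is the reverse complement of the other, so both cannot read the CUL4A transcript. Which of them reads it was not determined here. For FBXO21, only its 2 probes called for diet are shown and numbered.

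The first comparison asked how the diet changed these genes, with both lines together. HF pigs had lower levels of 17 of the 112 genes (15.2%) and higher levels of 6 (5.36%). Among all 43355 probes tested, 14.5% were called lower and 8.57% higher, and among 8858 named genes with 1 probe each, 18.3% were lower and 6.05% higher, so the share of members called lay near that of the array. The test was limma, with diet, line and their interaction in the model, and a call required a raw p under 0.01, a fold over 1.1 and an adjusted p under 0.08, the thresholds of the study. The median diet difference (HF minus LF) was -0.05 over the 112 genes and -0.02 over all probes tested, and 76 of the 112 lay below 0. Differences were small: 19 of the 23 called genes had a fold under 1.25, only TRIM63 had one over 1.5, and no member separated all HF from all LF pigs.

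These directions are relative to the array median. When the spike-in control probes were used for centring instead, the median of all probes moved from -0.02 to 0.12, and 24 members were called higher and 1 lower in HF pigs. With quantile normalisation of the median signal the split was 8 higher and 11 lower, after normexp background correction and quantile normalisation 8 and 10, and with the 75th percentile of the processed signal 8 and 12. The 6 genes called higher were among those called higher under spike-in centring, and FBXO44 was the gene still called lower.

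The families differed in their counts, to be read beside the 18.3% of named genes called lower and the 6.05% called higher. RNF genes gave 12 calls lower (25%) and 3 higher (6.25%) of 48, with a median difference of -0.07. F-box genes gave 3 lower (10%) and 1 higher (3.33%) of 30, with a median of -0.06. TRIM genes gave 2 lower and 2 higher (7.41% each) of 27, with a median near 0. No cullin of 7 was called, although the cullin median was -0.11, and with so few genes the absence of calls says little. No test was made between families, since their members were chosen with results of these pigs known. In each line taken alone, all 17 genes called lower had a difference below 0 and all 6 called higher one above 0, but not all passed the test with 12 pigs a diet. In high-RFI pigs alone FBXO32 (0.06, adjusted p = 0.875), TRIM63 (0.43, adjusted p = 0.221), TRIM25 (0.36, adjusted p = 0.0827) and RNF44 (0.30, adjusted p = 0.0838) were not called by limma, while in low-RFI pigs alone these 4 were.

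**Figure D1:**
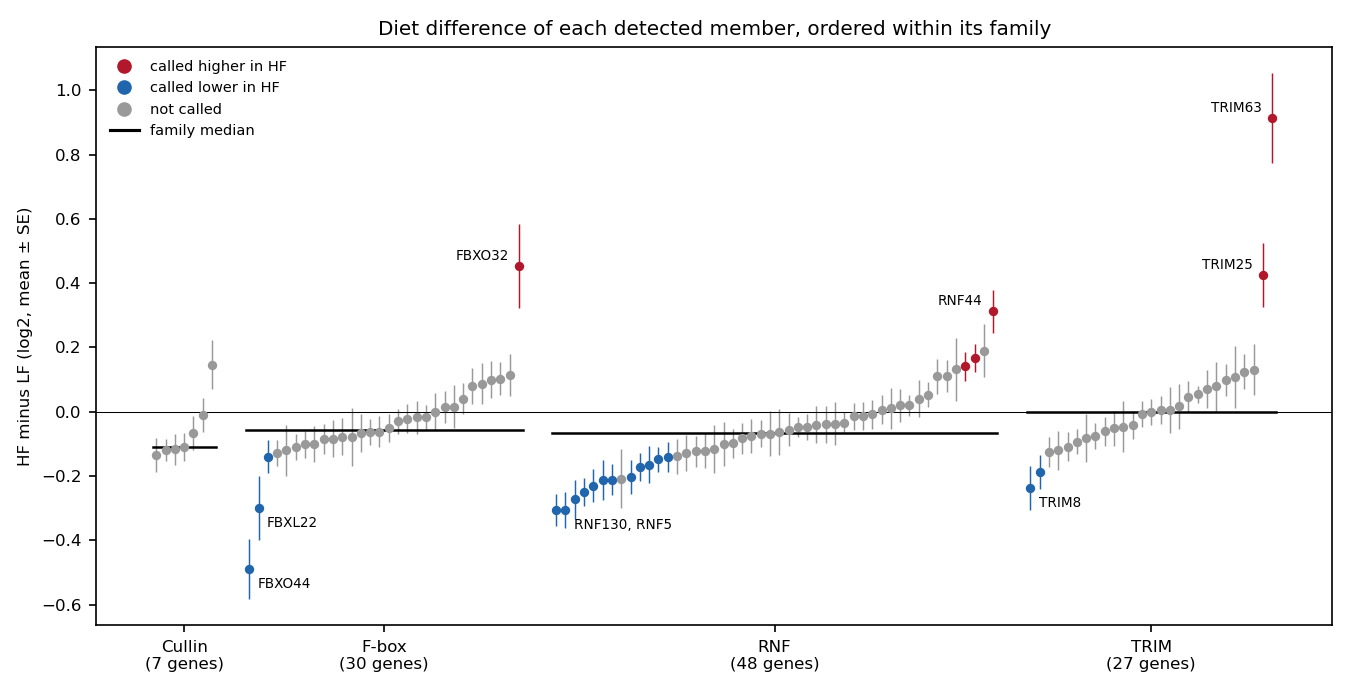
Diet difference (HF minus LF, log2, mean ± SE, 24 pigs a diet) of each of the 112 detected members, ordered within the 4 families, with the family median as a black line and called genes in colour. Most points lie between -0.2 and 0.2, with TRIM63 at 0.91 and FBXO44 at -0.49 as the extremes.

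The cullins themselves moved little. CUL1, the scaffold of F-box ligases, ranged from 5.39 to 6.09 (median 5.79) in HF pigs and from 5.58 to 6.48 (median 5.89) in LF pigs, a difference of -0.13 ± 0.05 (SE, adjusted p = 0.0562). CUL4B, which works through the adaptor DDB1, had the smallest adjusted p of the family (0.00674, limma): its HF pigs ranged from 4.18 to 4.59 (median 4.42) and its LF pigs from 4.30 to 4.70 (median 4.50). Its difference of -0.12 ± 0.03 amounts to a fold of 1.09, below the fold required, and the groups overlapped over most of their range.

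CUL3, which takes BTB proteins as receptors, differed by -0.12 ± 0.05 (adjusted p = 0.0587) and CUL4A by -0.11 ± 0.04 (adjusted p = 0.056). CUL4A, read from its probe 1, ranged from -0.54 to -0.14 (median -0.34) in HF pigs and from -0.57 to 0.13 (median -0.23) in LF pigs. The study lists CUL4A among genes lowered by the HF diet in perirenal and subcutaneous fat, whereas here it was lower but not called. In all, 4 of the 7 cullins had an adjusted p under 0.08 and 1 of them, CUL4B, a raw p under 0.01. For CUL2, the scaffold of the von Hippel-Lindau ligase, the difference was -0.01 with a 95% interval from -0.12 to 0.10, and for CUL9 it was -0.07 with an interval from -0.17 to 0.04.

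CUL7 was the cullin with a difference above 0, at 0.15 ± 0.08 on its brightest probe (adjusted p = 0.141), and its probes disagreed. Probe 1 ranged from 4.47 to 5.35 (median 4.92) in HF pigs and from 4.22 to 5.15 (median 4.79) in LF pigs. Probe 3 ranged from 0.34 to 1.13 (median 0.68) in HF pigs and from 0.55 to 1.15 (median 0.85) in LF pigs, a difference of -0.16 ± 0.06 that was called lower (adjusted p = 0.0362). Probe 2 differed by 0.19 ± 0.08 (adjusted p = 0.0712) and correlated with probe 1 across pigs (r = 0.813), so 2 of the 3 probes lay above 0 and the dimmest lay below.

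Around the cullins, several enzymes that attach and remove NEDD8 were lower in HF pigs. Of 6 measured genes of the NEDD8 cycle 4 were called lower, beside 18.3% of named genes in all: UBE2F and UBE2M, the enzymes that carry NEDD8 to cullins, by -0.22 and -0.15, DCUN1D1, which helps the transfer, by -0.16, and UBA3, part of the activating enzyme, by -0.14. NEDD8 itself differed by -0.16 ± 0.06 and was not called (adjusted p = 0.0474), and the median of the 6 was -0.16. Of 8 measured genes of the COP9 signalosome, which takes NEDD8 off again, 3 were called lower: COPS6 by -0.31 (1 of its 6 probes called), COPS5, the catalytic subunit, by -0.26 and COPS4 by -0.17. COPS8 was the subunit with a difference above 0, at 0.15 ± 0.07, and was not called. The lists of these genes, and of the adaptors and receptors below, were written with earlier results of these data known. Their counts therefore describe the listed genes only. The differences are relative to the array median, and spike-in centring moved the median of all probes from -0.02 to 0.12. How the pathway genes were called under that centring is not given here.

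COPS5 ranged from 4.57 to 5.19 (median 4.92) in HF pigs and from 4.86 to 5.47 (median 5.14) in LF pigs. In 23 of 24 HF pigs it was below the LF mean, while the ranges overlapped. Of 16 measured adaptors and receptors 2, or 12.5%, were called lower, a share under that of all named genes. They were the adaptors TCEB1 (elongin C, which serves CUL2), lower by -0.38 ± 0.05 (adjusted p = 4.99e-07), and SKP1, lower by -0.26 ± 0.05 (adjusted p = 6.6e-05). KLHL2, a receptor of CUL3, was the one called higher, by 0.22 ± 0.04. TCEB1 ranged from 2.62 to 3.24 (median 3.0) in HF pigs and from 2.97 to 3.69 (median 3.38) in LF pigs, and each of the 24 HF pigs was lower than the mean of the LF pigs. DDB1, the adaptor of CUL4A and CUL4B, differed by 0.05 ± 0.05 and was not called.

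**Figure D2:**
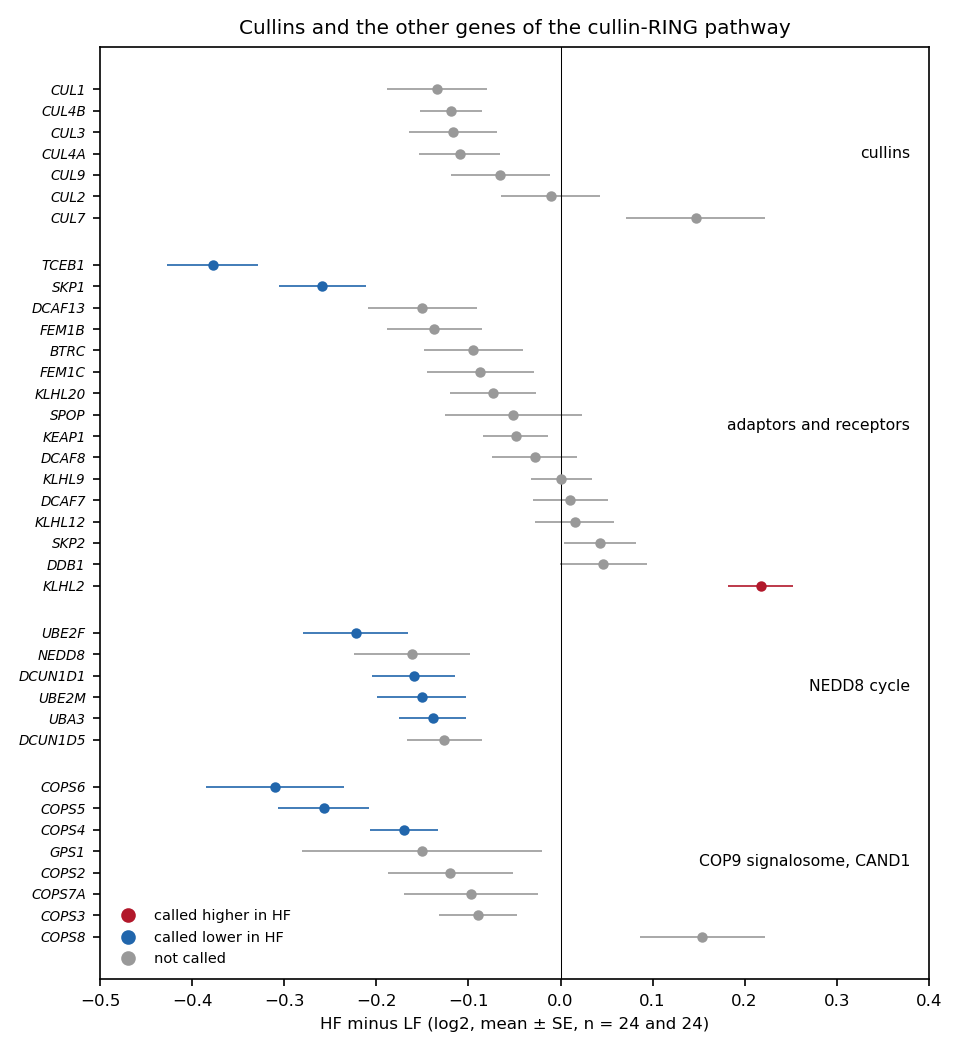
Diet difference (HF minus LF, log2, mean ± SE, 24 pigs a diet) of the 7 cullins, 16 adaptors and receptors, 6 genes of the NEDD8 cycle and 8 of the COP9 signalosome. The grey points of the cullins lie between -0.13 and 0.15, and the blue points, called lower, reach -0.38 for TCEB1.

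Among F-box receptors, FBXO44 fell the most. Its level ranged from 0.83 to 1.92 (median 1.44) in HF pigs and from 1.43 to 2.59 (median 1.96) in LF pigs, a difference of -0.49 ± 0.09 or a fold of 1.40 (adjusted p = 0.000114). Every one of the 24 HF pigs was below the LF mean, and the ranges overlapped between 1.43 and 1.92. It was read by a single probe.

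FBXL22 ranged from 0.02 to 1.44 (median 0.57) in HF pigs and from 0.12 to 1.60 (median 0.97) in LF pigs (difference -0.30 ± 0.10, adjusted p = 0.0193). The ranges overlapped almost wholly, although 21 of 24 HF pigs were below the LF mean. FBXO33 differed by -0.14 ± 0.05 (adjusted p = 0.0337), and its 6 probes, 2 of them identical in sequence, all lay between -0.14 and -0.09, with 1 called. Its call was lost without replicate 2 of the high-RFI HF pigs, the array with the fewest probes above background (-0.13, adjusted p = 0.0483, limma). There its fold fell below the 1.1 required and its raw p was no longer under 0.01.

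FBXO32, a muscle ligase of the atrophy response, rose in HF pigs. It ranged from 1.72 to 4.40 (median 3.22) in HF pigs and from 1.86 to 3.33 (median 2.76) in LF pigs, a difference of 0.45 ± 0.13 or a fold of 1.37 (adjusted p = 0.00702). In 10 HF pigs it was above every LF pig, and the lowest pig of all was an HF pig. All 5 of its separate probes were called higher, by 0.24 to 0.45.

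The F-box genes that steer the cell cycle were not called: FBXW7, which targets cyclin E and MYC, differed by -0.08 ± 0.05, FBXO31 by -0.03 ± 0.04 and FBXO11 by -0.06 ± 0.04. FBXL5, the iron-sensing receptor, differed by -0.07 with an interval from -0.18 to 0.05, and its 3 probes lay between -0.08 and -0.06. The study lists FBXL5 among genes raised by the HF diet in perirenal and subcutaneous fat, a direction that none of these probes showed. The reason for the disagreement was not tested. The 4 FBXW genes gave no call, the 8 FBXL genes 1 and the 18 FBXO genes 3.

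In the RNF family, 2 membrane-anchored ligases had the most negative differences. RNF130, the mammalian relative of the fly protein goliath, ranged from 5.34 to 6.07 (median 5.81) in HF pigs and from 5.76 to 6.34 (median 6.15) in LF pigs (difference -0.31 ± 0.05, adjusted p = 1.43e-05). RNF5, which sits in the endoplasmic reticulum and clears misfolded proteins, ranged from 7.80 to 8.30 (median 8.03) in HF pigs and from 7.85 to 8.77 (median 8.35) in LF pigs (difference -0.31 ± 0.06, adjusted p = 7.04e-05). For both genes all 24 HF pigs were below the LF mean and the ranges overlapped. Of the 4 RNF5 probes 3 were called lower and the other differed by -0.12, but 2 of those called share 59 of their bases and are nearly the same measurement. A probe reading the opposite strand of the same stretch was above background on 11 arrays only.

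RNF170, which acts on inositol trisphosphate receptors, and RNF121 were also called lower, and RNF152, a lysosomal ligase of the mTORC1 pathway, was called higher. Of 10 detected genes on a list of membrane-anchored RNF ligases, 4 were lower and 1 higher (all named genes, 18.3% lower and 6.05% higher). The list was written with earlier results of these data known and may not hold every such gene. These counts therefore describe the listed genes only. RNF152 ranged from -0.34 to 0.26 (median -0.07) in HF pigs and from -0.40 to 0.06 (median -0.22) in LF pigs (difference 0.17 ± 0.04, adjusted p = 0.00295). In 21 of 24 HF pigs it was above the LF mean. RNF139, RNF145, RNF149, RNF185 and RNF103 were not called, with differences between -0.08 and 0.11.

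RNF114 ranged from 5.93 to 6.71 (median 6.41) in HF pigs and from 6.26 to 7.06 (median 6.63) in LF pigs (difference -0.27 ± 0.06, adjusted p = 0.000851). RNF14, a ring-between-ring ligase that binds the androgen receptor, ranged from 2.54 to 3.08 (median 2.89) in HF pigs and from 2.76 to 3.51 (median 3.14) in LF pigs (difference -0.25 ± 0.04, adjusted p = 3.85e-05). In both genes at least 23 of 24 HF pigs were below the LF mean, and both probes of each gene were called lower. RNF14 was the only call among 7 detected ring-between-ring genes of the RNF family, whose median difference was -0.04.

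The other 8 RNF genes called lower were RNF181, RNF34, RNF170, RNF138, RNF126, RNF113A, RNF10 and RNF121, with differences from -0.23 to -0.14 and adjusted p-values from 0.000704 to 0.0284 (limma). They include RNF138, a ligase that takes part in the trimming of DNA ends for repair, RNF126, which clears proteins that miss their membrane, and RNF113A, a spliceosome protein. The calls of RNF10, RNF113A, RNF121 and RNF126, and that of TRIM31 below, were lost under both quantile settings, where the 4 RNF differences lay between -0.14 and -0.06.

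The largest rise in the family was that of RNF44, from a range of 1.57 to 2.63 (median 2.26) in LF pigs to a range of 2.17 to 2.95 (median 2.55) in HF pigs (difference 0.31 ± 0.07, adjusted p = 0.000399). In 22 of 24 HF pigs it was above the LF mean. RNF20, which ubiquitinates histone H2B with RNF40, rose by 0.14 ± 0.05 (adjusted p = 0.0152), while RNF40 differed by -0.06 ± 0.05 and was not called. RNF2, the catalytic subunit of the polycomb repressive complex, differed by -0.04 ± 0.06.

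In the TRIM family, TRIM63 rose more than any other of the 112 genes. Its level ranged from -1.60 to 1.06 (median 0.10) in HF pigs and from -1.89 to 0.00 (median -1.04) in LF pigs, a difference of 0.91 ± 0.14 or a fold of 1.88 (adjusted p = 5.12e-06). In 21 of 24 HF pigs it was above the LF mean and in 13 above every LF pig. The probe is dim, well above background on 23 HF and 19 LF arrays.

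The second TRIM63 probe was above background on 15 HF and 2 LF arrays and failed detection, so it gives no separate measure of the rise. The TRIM63 diet difference was 1.61 with the 75th percentile of the background-subtracted processed signal, and 0.51 when the gene was read from the spots the authors kept, which hold that second probe only. The other ligases of striated muscle, TRIM55 and FBXO40, differed by 0.10 ± 0.05 and 0.11 ± 0.07 and were not called. Of 6 detected skeletal muscle markers none was called for diet (limma), their median difference was -0.09, and their summed level had a median of 6.41 in HF pigs and 6.57 in LF pigs, with ranges of 6.09 to 6.91 and 6.24 to 6.94.

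TRIM25, an interferon-induced ligase that activates the RNA sensor RIG-I, ranged from 2.83 to 4.26 (median 3.68) in HF pigs and from 2.48 to 3.89 (median 3.16) in LF pigs. The difference was 0.43 ± 0.10, a fold of 1.34 (adjusted p = 0.00113), and 20 of 24 HF pigs were above the LF mean. The other 4 detected antiviral TRIM genes were not called: TRIM5 differed by 0.11 ± 0.10, TRIM38 by 0.13 ± 0.08, TRIM21 by 0.07 ± 0.06 and TRIM26 by 0.01 ± 0.07.

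TRIM8, a ligase of cytokine signalling, fell by 0.24 ± 0.07 on the log2 scale (adjusted p = 0.00779), from a range of 4.79 to 5.53 (median 5.08) in LF pigs to a range of 4.35 to 5.51 (median 4.79) in HF pigs. Of its 4 probes 3 were called lower. TRIM31 ranged from 5.14 to 5.78 (median 5.57) in HF pigs and from 5.32 to 6.09 (median 5.71) in LF pigs, a difference of -0.19 ± 0.05 (adjusted p = 0.00613). It belongs to a run of 7 TRIM and RNF genes on chromosome 7 of the RefSeq annotation, of which 5 were detected, and the other 4, RNF39, TRIM26, TRIM39 and TRIM40, were not called. The transcriptional cofactors TRIM24, TRIM28 and TRIM33 differed by -0.05, -0.04 and -0.00.

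**Figure D3:**
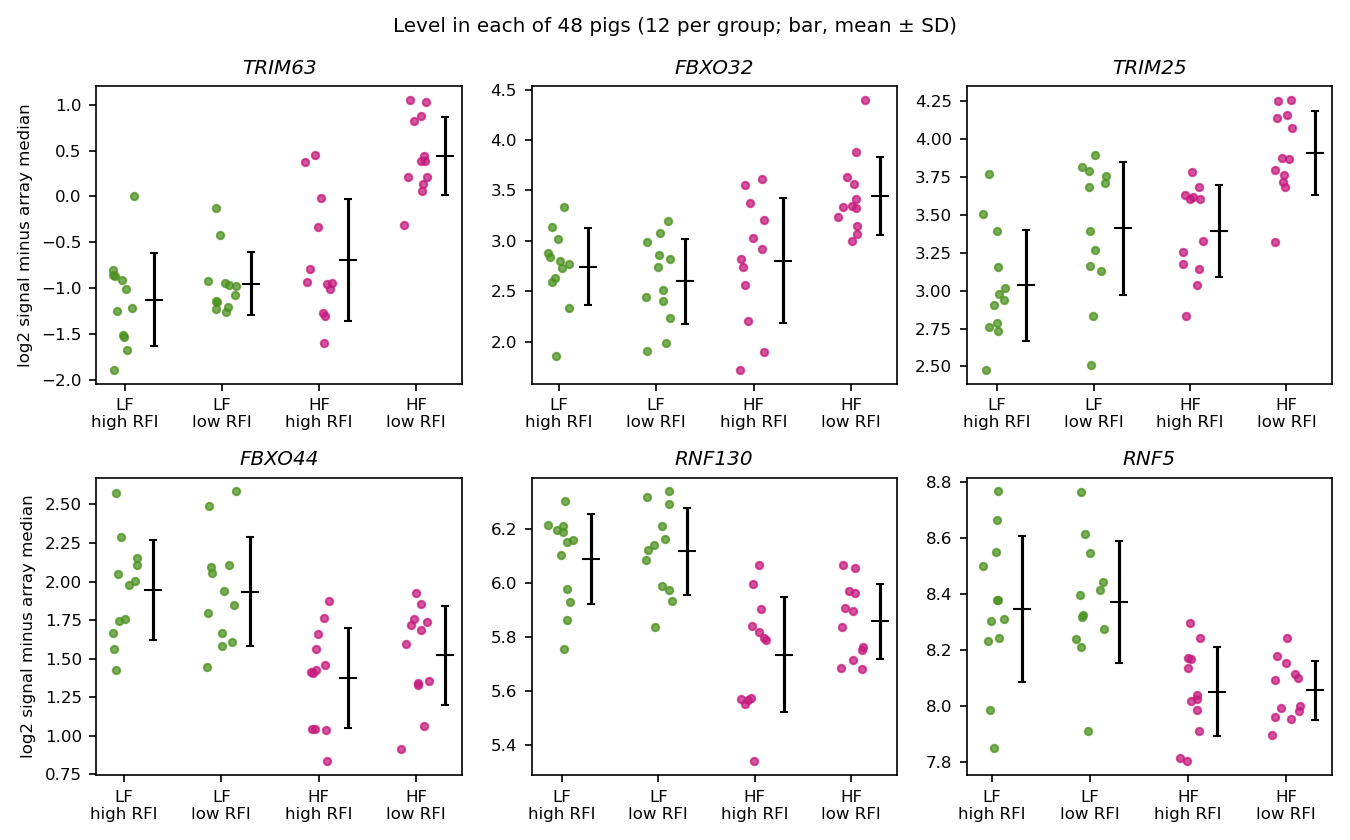
Level (log2 signal minus array median) of 6 members in each of 48 pigs, in 4 groups of 12, with the mean ± SD of the group beside the points. TRIM63 and FBXO32 are highest in low-RFI pigs fed the HF diet, TRIM25 is shifted by both diet and line, and FBXO44, RNF130 and RNF5 are lower in HF pigs of either line.

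The second comparison asked how the lines differed, over both diets. Of 112 members 4 were called. TRIM63, TRIM25 and RNF217 were higher and FBXO22 was lower in low-RFI pigs. Among all probes tested 3.37% were called, 1.71% higher and 1.67% lower, and among named genes 3.09%, 1.72% higher and 1.38% lower. TRIM63 ranged from -1.26 to 1.06 (median -0.22) in low-RFI pigs and from -1.89 to 0.45 (median -0.95) in high-RFI pigs (difference 0.66 ± 0.14, fold 1.58, adjusted p = 0.00299). The low-RFI pigs were spread over both sides of the high-RFI mean, with 14 of 24 above it. TRIM25 ranged from 2.51 to 4.26 (median 3.76) in low-RFI pigs and from 2.48 to 3.78 (median 3.16) in high-RFI pigs (difference 0.45 ± 0.10, fold 1.36, adjusted p = 0.00477). Here 20 of 24 low-RFI pigs were above the high-RFI mean and 11 were above every high-RFI pig.

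RNF217, a ring-between-ring ligase that targets the iron exporter ferroportin, ranged from 0.42 to 1.33 (median 0.79) in low-RFI pigs and from 0.20 to 1.02 (median 0.61) in high-RFI pigs (difference 0.23 ± 0.07, adjusted p = 0.0574). FBXO22, which targets histone demethylases, ranged from 4.68 to 5.30 (median 4.90) in low-RFI pigs and from 4.83 to 5.34 (median 5.05) in high-RFI pigs (difference -0.17 ± 0.05, adjusted p = 0.0304). In 21 of 24 low-RFI pigs it was below the high-RFI mean, and its second probe, whose annotation also names a transcript of the opposite strand, differed by -0.15 and was not called. TRIM63 and TRIM25 were the 2 members called for both diet and line. Neither FBXO32 (0.25 ± 0.13, adjusted p = 0.435) nor any cullin was called for line, but probe 4 of FBXO32 was called higher in low-RFI pigs by 0.29 (adjusted p = 0.0228).

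The third comparison asked whether the response to diet depended on the line. By limma's interaction term no member was called, and none of all 43355 probes (percent called 0). At an unadjusted limma p under 0.05 there were 7 of the 112 members, beside 997 of the 43355 probes and 186 of 8858 named genes. A 2-way ANOVA also called none, with 980 probes at that level. The smallest interaction p-values among members were those of TRIM63 (raw p = 0.00119), FBXO32 (raw p = 0.0038) and TRIM5 (raw p = 0.0167), each with an adjusted p of 1.0.

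TRIM63 in HF pigs ranged from -0.31 to 1.06 (median 0.39) in the low-RFI line and from -1.60 to 0.45 (median -0.94) in the high-RFI line. In LF pigs it ranged from -1.26 to -0.13 (median -1.02) and from -1.89 to 0.00 (median -1.11). The diet difference was thus 1.40 in low-RFI pigs and 0.43 in high-RFI pigs, an interaction of 0.96 ± 0.28. FBXO32 in HF pigs ranged from 3.0 to 4.40 (median 3.34) in the low-RFI line and from 1.72 to 3.62 (median 2.87) in the high-RFI line, with LF medians of 2.63 and 2.79. Its diet difference was 0.85 in low-RFI pigs and 0.06 in high-RFI pigs, an interaction of 0.79 ± 0.26. TRIM5 differed by 0.35 in low-RFI pigs and by -0.13 in high-RFI pigs, whereas TRIM25 differed by 0.50 and 0.36. After adjustment none of these differences between lines passed the threshold.

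**Figure D4:**
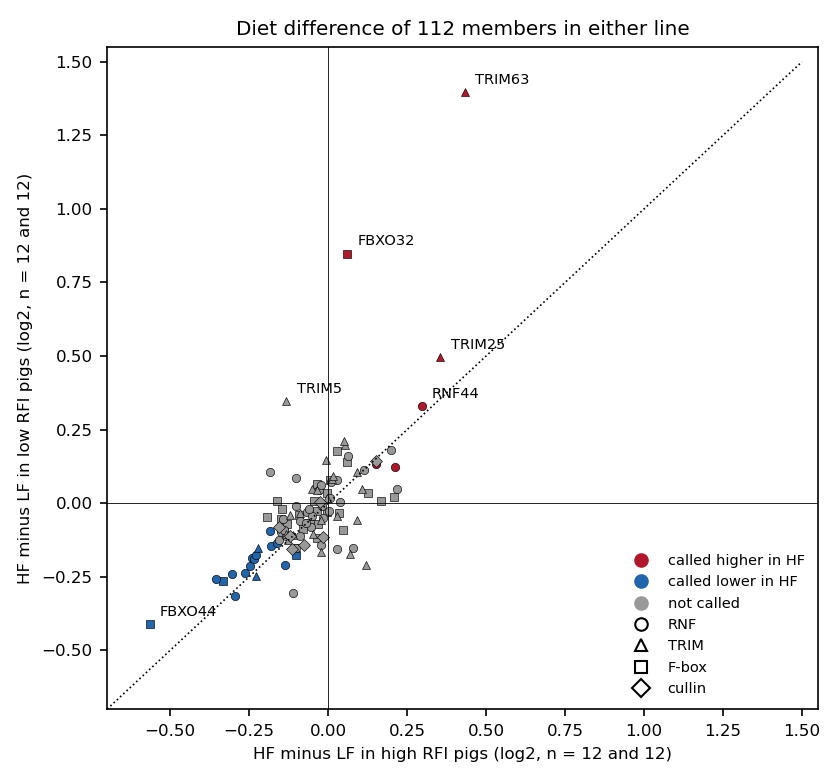
Diet difference (HF minus LF, log2) of the 112 members in low-RFI pigs against that in high-RFI pigs, with 12 pigs a diet in each line and a dotted line of equality. Most members lie near the dotted line, while TRIM63, FBXO32 and TRIM5 lie above it, and no interaction was called.

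The 2 lines, which share no pigs, gave diet differences of the same sign for 89 of the 112 members, and Pearson's r across members was 0.668, as a description over genes that are not independent. Over the 48 deviations from the group means of TRIM63 and FBXO32, Pearson's r was 0.435 and Spearman's rho 0.470. This pair was chosen after its values were seen, so the values are a description with no test, and pigs of different groups share slides. Without the 2 pigs farthest from the median in TRIM63, r was 0.376, and within the 4 groups r was 0.514 and 0.202 in low-RFI and high-RFI HF pigs and 0.705 and 0.689 in low-RFI and high-RFI LF pigs. Over all pairs of members of a family the median correlation within groups was 0.09 among RNF, 0.02 among TRIM, 0.10 among F-box genes and 0.16 among cullins.

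Several probes of a gene gave a check on the measurements. Of 51 members with 2 or more detected probes, 37 had all probes on the same side of 0 for diet, and 1 had probes called in opposite directions. That gene was FBXO21, whose 5 probes ranged from -0.16 to 0.18. Its probe 1 had a median of 3.08 in HF and 3.24 in LF pigs (-0.16 ± 0.03, adjusted p = 0.000208) and its probe 2 a median of 1.71 in HF and 1.60 in LF pigs (0.18 ± 0.05, adjusted p = 0.00471). Its brightest probe differed by -0.02 and was not called, so no direction is given for FBXO21. Among called genes with several probes, all 11 had every probe on the side of the call, and 5 of the 11 had every probe called.

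RNF31, the catalytic subunit of the linear ubiquitin ligase, was read by 3 probes of identical sequence and 1 of another sequence (its probe 4). Of the identical probes, 2 differed by 0.05 and the remaining one by -0.09 ± 0.16, where 1 LF pig read 8.18 against a highest LF value of 4.80 on the brightest of the 3. Probe 4 was called lower (-0.18 ± 0.06, adjusted p = 0.0107). Over all 180 pairs of probes of a gene the median correlation across pigs was 0.619. It was 0.893 for pairs that share 20 or more bases on the same strand and 0.586 for the other 160 pairs, and it was 0.178 for the 2 CUL4A probes on opposite strands.

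**Figure D5:**
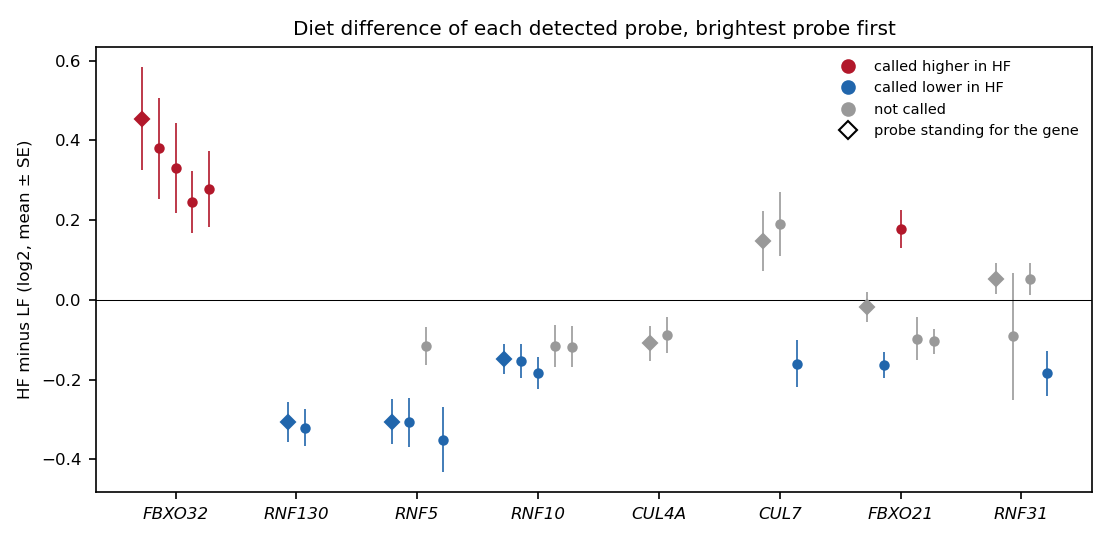
Diet difference (HF minus LF, log2, mean ± SE, 24 pigs a diet) of each detected probe of 8 members, from the brightest probe on the left, with a diamond for the probe that stands for the gene. The 5 probes of FBXO32 all lie above 0, whereas those of CUL7, FBXO21 and RNF31 lie on both sides.

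Detection bounded what could be seen. Of the 112 members 101 were above background on all 48 arrays and the remaining 11 on fewer. Just inside the rule were FBXL8 on 26 arrays, TRIM24 on 34 and CUL9 on 37, and just outside it RNF26 on 19, TRIM15 on 15 and FBXW11 on 14. The 22 members not detected also include RNF213, TRIM56 and TRIM11, and no value is given for them. Other ubiquitin ligases, of the HECT type and of further RING families, gave 7 calls lower and none higher among 39 measured (17.9% lower, beside 18.3% of all named genes), with PARK2 (parkin) at -0.40 and KCMF1 at -0.25, and none of 6 ubiquitin and ubiquitin-activating genes was called.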

How the data were processed

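Perirenal adipose tissue of 48 pigs was hybridised singly to one-colour porcine Agilent arrays. The authors labelled total RNA with Cy3, and the spot intensity values and flags were deposited as written by Agilent Feature Extraction, 10.7.3.1 per the file headers, without scaling between arrays. The authors also deposited log2 values of 38142 filtered spots, centred on the array median in R 2.10.0. These equal spots of the scanner files, but only 2 row names fit their values, so names and values were taken from the scanner files.

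Here log2 of the median spot signal minus the array median over non-control probes was used, without background subtraction, so folds of dim probes are understated. The 43355 probes flagged well above background on 24 or more arrays were tested with limma 3.58.1 (R 4.3.3, lmFit and eBayes) on diet, line and their interaction, with Benjamini-Hochberg adjustment over all of them. Samples were grouped by their titles, and replicates were separate pigs. Intervals use 44 residual degrees of freedom. The fit was tested on simulated data. Gene symbols are those of the array, and 108 of 112 members are in the RefSeq table of Sscrofa11.1, which also gave the neighbours on chromosome 7. The genome build behind the probe design was not given in the sources used here, and no coordinates are printed. Named genes were all cullins, the 4 largest rises and 4 largest falls called for diet in each other family, up to 5 members called for line in each direction, the 3 with the smallest interaction p, FBXL5 and CUL4A, examples from lists of roles, members with probes called in opposite directions, and those at the edge of detection. The other 8 RNF genes called lower, RNF31, the CUL7 probes and the relation of TRIM63 to FBXO32 were chosen after their values were seen. Members and lists were chosen with earlier results of these data known. Alternatives covered scaling, the filter, the probe for a gene, slide, scan day and replicate blocks, the test and its thresholds.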

Additional observations from a re-analysis of the deposited data

How the results depend on the processing

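Spike-in centring moved the most values: 1 member lower, 24 higher and 2 called for line, and median diet differences of 0.088 over all members, 0.074 over RNF, 0.14 over TRIM, 0.084 over F-box genes and 0.031 over cullins, and the FBXO33 diet difference changed sign (0.000452). Calls lower numbered 10 with normexp and quantile normalisation and 11 with quantile normalisation alone, against 17, and all of these were among the 17. The TRIM median became 0.048 and 0.050. A fold over 1.5 left no member lower, 1 higher and 1 for line. Without adjustment 2 of the 112 members passed for the interaction. Beside them, 70 probes with a positive and 62 with a negative interaction passed of 43355, and 23 and 11 of 8858 named genes. On slide 3 alone the median was 0.0032 over all members and 0.0032 over RNF genes, and on slide 4 alone it was 0.036 over F-box genes.

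Same-numbered replicates of the 4 groups lay on the same slide. Their deviations had a median correlation of 0.121, against -0.0113 for other pairs. Of 72 such pairs 38 correlated over 0.1, and 17 of 48 pigs correlated best with their own number. Same-numbered pigs were thus more alike than others, and a shared number and a shared slide were not told apart. The labels do not say that the numbers pair the pigs, so the main fit had no block. With the replicate block 18 members were lower, 6 higher, 4 called for line and 0 for the interaction, and the slide block gave the same 4 counts. Names in capitals only, and leaving out the array with the fewest probes above background, both chosen after seeing the data, gave 16 lower and 6 higher. Of the 23 genes called for diet, 17 lost the call under at least 1 of the 15 alternatives run gene by gene, which leave out the fold of 1.5 and the single slides. Most of these losses occurred under spike-in centring, which left 1 of the genes called lower and all 6 called higher. Some calls were also lost under other settings, such as the quantile normalisations. Dim probes, TRIM63 among them, limit the folds that can be measured.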
